A study of Mus musculus with 56 samples.

Results

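The genes described here are those of the classical MHC class I pathway: the heavy chains H2-K1 and H2-D1, the light chain B2m, the peptide transporter subunits Tap1 and Tap2, the loading factor Tapbp (tapasin), the inducible proteasome subunits Psmb8 and Psmb9, and the transcriptional regulator Nlrc5. They were chosen by name, by a rule that uses no measured value though earlier results of these data were known, and are 9 of the 53379 genes in the count table. All 9 had enough counts to be tested in every comparison. The libraries came from C57BL/6 males aged 3 months or 21 months, sampled in the testis and in 6 duct regions, namely the efferent ductules, the initial segment and the remaining caput, the corpus and the cauda of the epididymis, and the vas deferens, with 4 libraries for each region and age and 56 in all. No engineered allele or treatment is named for the mice. The study's methods state that the paired organs of each mouse were dissected, that 4 mice of each age were used, and that the animals came from the animal centers of 2 universities and were kept specific pathogen-free. Which mouse came from which center is not given, so center and age could not be separated here.

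MHC class I molecules carry short peptides from proteins made inside a cell to its surface, where CD8 T cells read them. Proteasomes cut the peptides, and Psmb8 and Psmb9 are catalytic subunits that replace their constitutive counterparts Psmb5 and Psmb6 in cells exposed to interferon. The Tap1 and Tap2 transporter moves the peptides into the endoplasmic reticulum, tapasin holds the empty class I molecule beside the transporter, and B2m is the invariant light chain without which the heavy chain is not stably displayed. Nlrc5 is a nuclear regulator that raises transcription of class I genes through promoter elements shared among them. Developing germ cells are shielded from the immune system behind the blood-testis barrier, and sperm carry antigens that are foreign to the body along the whole duct.

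The libraries held 11125279 to 20561967 counts assigned to genes, with a median of 16384049. All 17 region markers fixed for checking the labels, such as Prm1 for the testis, Adam28 for the initial segment and Akr1b7 for the vas deferens, had their highest mean level at 3 months in the region they mark. Several libraries stood apart and touch the results below. In replicate 2 of the 3-month caput epididymis, 49.7% of all counts fell on Gm42418, a gene that overlaps a ribosomal RNA repeat. The share of this gene in the efferent ductules was 1.27 to 3.29% at 3 months and 4.93 to 22.2% at 21 months. In replicate 3 of the 3-month cauda epididymis, the summed level of 6 macrophage markers was 1362 CPM, against 281 to 298 CPM in the other 3 libraries of that group. Levels below are counts scaled to the library total after trimmed-mean (TMM) correction, written as CPM and given as mean ± SD over 4 libraries unless stated otherwise.

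Of the 9 genes, 7 had an entry in the RefSeq promoter table (GRCm38.p6). The 250 bases before each start were searched on both strands for TGACG, a core bound by CREB-like factors, CCAAT, which is bound by NF-Y, a pair of GAAA repeats 2 bases apart, a core bound by interferon regulatory factors, and GGGA and CCC spaced by 3 bases, a core bound by NF-kappaB. The NF-kappaB letters can match both strands at overlapping positions. TGACG was found in 5 of the 7 genes and in 17.8% of all 32851 promoters. CCAAT was found in 6 of the 7 and in 33.8% of all promoters. Among the 7 genes the GAAA pair was found only in B2m (2.98% of all promoters), and the NF-kappaB letters in H2-K1 and H2-D1 (4.77%). Only these exact letters and spacings were searched, so a promoter without a match may still hold a site of the same factors. H2-K1, H2-D1 and B2m, the genes that encode both chains of the class I molecule, also shared an arrangement: TGACG was followed after exactly 20 bases by ATTGG, which is CCAAT read on the other strand. This spacing was looked for after it had been seen in these promoters, and 0.0913% of all promoters hold it. The 3 stretches are shown because they carry this arrangement, 5′ to 3′ on the strand of the gene, with TGACG and ATTGG in capitals.
H2-K1 (GRCm38.p6 chr17:34000359-34000388, minus strand): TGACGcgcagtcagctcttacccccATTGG
H2-D1 (GRCm38.p6 chr17:35262993-35263022, plus strand): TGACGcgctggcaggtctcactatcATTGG
B2m (GRCm38.p6 chr2:122147609-122147638, plus strand): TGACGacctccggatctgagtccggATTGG

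The longer upstream stretches of H2-K1 and B2m are shown as those of the more abundant heavy chain of the corpus and of the light chain, whose age effect differed between regions as described further on. They run from 180 to 11 bases before the RefSeq start, with matches to TGACG and to CCAAT, the GAAA pair and the NF-kappaB letters on either strand in capitals. In H2-K1 the first run of capitals holds the NF-kappaB letters once on each strand, overlapping. In B2m the first run of capitals is the GAAA pair.
H2-K1 (GRCm38.p6 chr17:34000358-34000527, minus strand): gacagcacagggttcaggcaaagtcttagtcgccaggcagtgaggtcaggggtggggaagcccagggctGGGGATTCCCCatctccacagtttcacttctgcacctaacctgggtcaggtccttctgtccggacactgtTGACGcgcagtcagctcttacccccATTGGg
B2m (GRCm38.p6 chr2:122147507-122147676, plus strand): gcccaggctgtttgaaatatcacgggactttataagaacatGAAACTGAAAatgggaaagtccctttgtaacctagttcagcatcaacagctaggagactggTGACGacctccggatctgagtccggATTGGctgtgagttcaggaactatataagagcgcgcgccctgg

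The heavy chains were lowest in the testis and differed from each other in where they were highest. H2-K1 (ENSMUSG00000061232, chromosome 17, 33996017 to 34000347, GRCm38) stood at 43.5 ± 7.85 CPM in the 3-month testis and at 1116 ± 209 CPM in the 3-month corpus, where the 4 libraries had 1423, 1048, 1043 and 951 CPM. The efferent ductules came next with 554 ± 30.3 CPM, and no library of one region reached into the range of the other. The caput (416 ± 54.9 CPM) and cauda (396 ± 60.4 CPM) overlapped each other, as did the initial segment (216 ± 21.7 CPM) and the vas deferens (186 ± 11.4 CPM). H2-D1 (ENSMUSG00000073411, chromosome 17, 35262730 to 35267499) had no such peak in the corpus. Its 3-month mean was 456 ± 180 CPM for the cauda, with 434 ± 22.8 CPM in the efferent ductules, 328 ± 71.5 CPM in the corpus and 272 ± 38.7 CPM in the caput, and each of these regions overlapped with the next in that order. The cauda mean of H2-D1 rests in part on replicate 3, which had 725 CPM where the others had 354 to 376 CPM. The vas deferens (217 ± 15.9 CPM) followed and overlapped the caput, and the initial segment (168 ± 8.22 CPM) and testis (12.6 ± 2.77 CPM) came last, each without overlap with the region above it. Reads of the near-identical class I genes can be shared between them, so the split of counts between H2-K1 and H2-D1 is uncertain to that extent.

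The light chain B2m (ENSMUSG00000060802, chromosome 2, 122147686 to 122153083) was the most abundant of the 9 genes per kilobase of exon in every group but the 3-month testis. At 3 months its mean was 17.5 ± 4.52 CPM in the testis, 416 ± 48.0 CPM in the efferent ductules, 465 ± 74.1 CPM in the initial segment, 628 ± 223 CPM in the caput, 1466 ± 258 CPM in the corpus, 1614 ± 283 CPM in the cauda, with 433 ± 77.4 CPM in the vas deferens. The corpus and cauda overlapped each other and lay above every library of the other 5 regions. The caput, initial segment, vas deferens and efferent ductules formed a run in which each overlapped with the next.

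**Figure D1:**
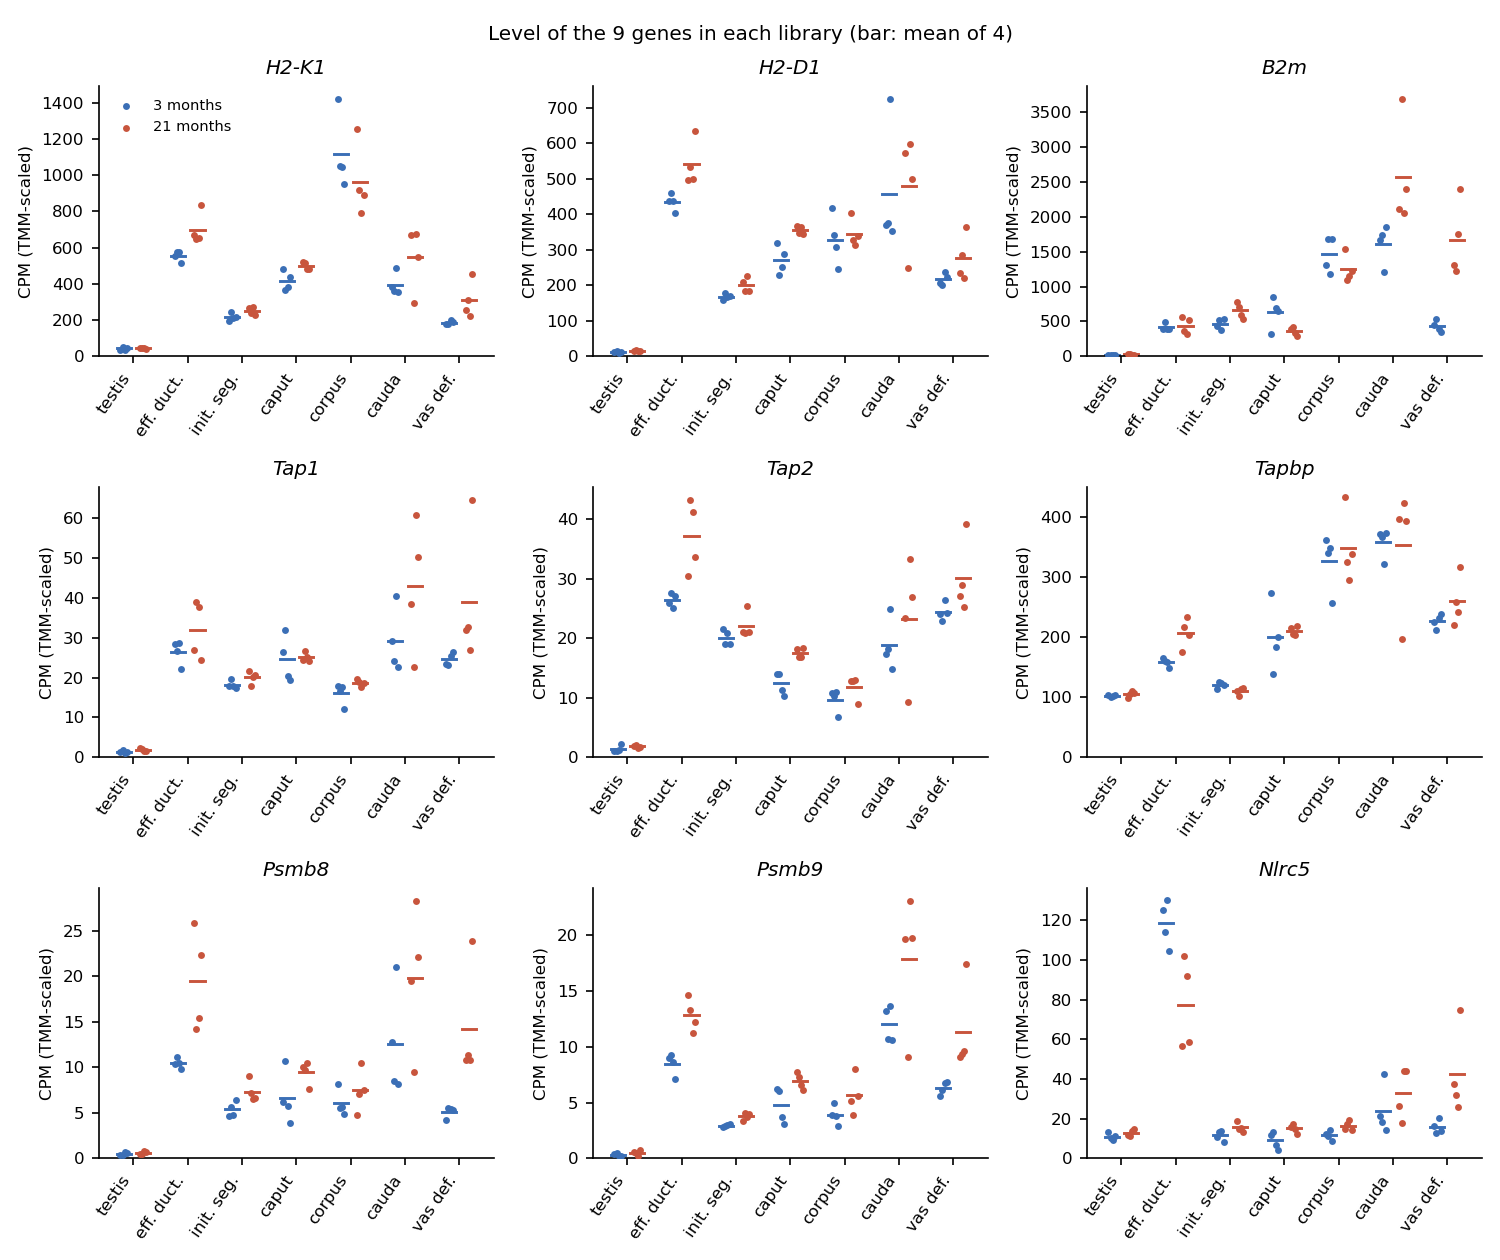
Level of each of the 9 genes (one panel each, CPM on the vertical axis, starting at 0) in the 7 regions (horizontal axis) at 3 months (blue) and 21 months (red), where each point is 1 library and each bar the mean of 4. The testis is lowest for all genes but Nlrc5 at 3 months. At 3 months H2-K1 stands out in the corpus and Nlrc5 in the efferent ductules, while at 21 months each overlaps with the next region. Replicate 4 of the 21-month vas deferens is the highest point of its group in all 9 panels.

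The transporter subunits stood below the heavy and light chains per kilobase in every duct at 3 months, and among the ducts the means of Tap2 covered a wider range than those of Tap1. Tap1 (ENSMUSG00000037321, chromosome 17, 34187553 to 34197225) ranged at 3 months from 16.1 ± 2.73 CPM in the corpus to 29.1 ± 8.03 CPM in the cauda, and every duct region overlapped with the next in order. The cauda mean rests in part on replicate 3 (40.4 CPM), as the other 3 libraries had 22.7 to 29.2 CPM against 22.1 to 28.7 CPM in the efferent ductules. In the testis it had 1.43 ± 0.385 CPM. Tap2 (ENSMUSG00000024339, chromosome 17, 34203527 to 34216321) was highest in the efferent ductules (26.4 ± 1.20 CPM) and vas deferens (24.4 ± 1.45 CPM), at 9.69 ± 1.94 CPM in the corpus and at 1.39 ± 0.526 CPM in the testis. Tapasin differed from all of these in the testis. Tapbp (ENSMUSG00000024308, chromosome 17, 33915899 to 33929292) had 102 ± 1.93 CPM there, close to the 121 ± 4.94 CPM of the initial segment, though the libraries did not overlap, and rose to 327 ± 47.2 CPM in the corpus and 358 ± 24.3 CPM in the cauda. In the 3-month testis Tapbp was therefore the highest of the 9 genes per kilobase, at 28.2 CPM per kilobase against 20.3 for B2m, 14.8 for H2-K1 and 4.88 for H2-D1. The exons of Tapbp share 904 bases with the antisense gene Gm19412 and 149 bases with Zbtb22, and those of Tap2 share 533 bases with Gm15821 on the other strand. The antisense gene Gm20496 shares 498 exon bases with Psmb8 and 165 with Tap2, and 9330175E14Rik shares 78 with Nlrc5, and reads in the shared bases may be assigned to either gene or left out.

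Psmb8 (ENSMUSG00000024338, chromosome 17, 34197721 to 34201454) and Psmb9 (ENSMUSG00000096727, chromosome 17, 34181987 to 34187764) lie on either side of Tap1, and the exons of Psmb9 and Tap1 share 212 bases on opposite strands. Both were scarce in the testis, where Psmb8 had 6 to 12 counts and Psmb9 3 to 9 counts per library at 3 months. Psmb8 was highest in the cauda (12.6 ± 5.97 CPM) and efferent ductules (10.4 ± 0.514 CPM), whose libraries overlapped. Without its replicate 3 the cauda had 8.16 to 12.7 CPM. Psmb8 lay between 5.09 ± 0.617 CPM (vas deferens) and 6.61 ± 2.91 CPM (caput) in the other 4 ducts. Psmb9 was highest in the cauda (12.1 ± 1.61 CPM), then in the efferent ductules (8.50 ± 0.933 CPM) and vas deferens (6.33 ± 0.578 CPM), with no overlap among these 3 regions. The initial segment had the least of the ducts, with 2.94 ± 0.112 CPM.

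Nlrc5 (ENSMUSG00000074151, chromosome 8, 94434356 to 94527272) had a profile of its own. In the 3-month efferent ductules its 4 libraries had 125, 114, 130 and 105 CPM. The highest library of any other region at that age was replicate 3 of the cauda, with 42.5 CPM, and the other 3 cauda libraries had 21.2 CPM or less. The remaining 5 regions, the testis with 9.17 to 13.1 CPM among them, had means of 8.98 to 15.7 CPM and overlapped each other in order. The testis was thus not the lowest region for Nlrc5, in contrast to the other 8 genes.

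Differences between neighbouring regions were tested at 3 months in 1 edgeR fit of 28 libraries, with Benjamini-Hochberg adjustment over 34475 genes and an adjusted p under 0.05 as the call. From the testis to the efferent ductules all 9 genes rose, where 34.8% of all genes tested were called higher and 40.8% lower. The fitted log2 differences ran from 0.68 for Tapbp to 5.16 for H2-D1, with a median of 4.31, and all 9 genes were without overlap between the libraries. The share of all genes without overlap was not counted, here or in the tests of age, so overlap only describes single genes. H2-D1 was 35.8-fold higher (SE 0.23 on the log2 scale), Psmb9 27.8-fold and B2m 24.8-fold, while Tapbp was 1.61-fold higher. The sum of 6 germ cell markers was 8883 to 10552 CPM among the 3-month testis libraries and 34.5 to 162 CPM among those of the efferent ductules. In bulk tissue fewer cells of a type and less RNA per cell cannot be told apart, and the part of germ cells in these differences was not tested.

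From the efferent ductules to the initial segment 7 genes fell and none rose, with 23.7% of all genes called lower and 19.7% higher. Nlrc5 changed the most, with a log2 difference of -3.32 (SE 0.30, adjusted p = 7.33e-11), a 9.97-fold lower level in the initial segment. Psmb9 was 2.81-fold lower, H2-D1 2.52-fold, H2-K1 2.50-fold, Psmb8 1.88-fold, Tap1 1.41-fold and Tapbp 1.28-fold. The call of Tap1 was lost without replicate 1 or replicate 2 of the efferent ductules (adjusted p = 0.0791 and 0.0630). B2m did not pass the test (log2 difference 0.20, adjusted p = 0.510), nor did Tap2 (log2 difference -0.36, adjusted p = 0.101). Thus the heavy chains differed between these regions by over 1 log2 unit while the light chain had similar means of 416 and 465 CPM.

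From the initial segment to the caput 5 genes rose and 1 fell, with 15% of all genes called higher and 12.8% lower. H2-K1 rose 2.06-fold, Tapbp 1.75-fold, H2-D1 1.72-fold, Psmb9 1.70-fold and Tap1 1.44-fold, and Tap2 fell (log2 difference -0.61, SE 0.18, adjusted p = 0.0108). B2m was not called (log2 difference 0.55, adjusted p = 0.0610), but was called higher with the replicate number as a block (0.0308) or without a count filter (0.0412). The call of Tap1 was lost without replicate 1 or 2 of the caput or without any 1 library of the initial segment (adjusted p = 0.0677 to 0.175, the latter without replicate 2 of the caput, the library rich in Gm42418), and that of Psmb9 without replicate 1 of the caput (adjusted p = 0.0635). From the caput to the corpus H2-K1 rose 2.53-fold (log2 difference 1.34, SE 0.14, adjusted p = 2.77e-09), B2m rose 2.16-fold and Tapbp 1.55-fold. Tap1 fell in the same step (log2 difference -0.70, SE 0.19, adjusted p = 0.00382). In this step 15.9% of all genes were called higher and 17.6% lower. H2-D1 was not called (log2 difference 0.18, SE 0.19, adjusted p = 0.491), so the 2 heavy chains parted here.

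From the corpus to the cauda H2-K1 fell again, by 1.56 on the log2 scale (SE 0.14, adjusted p = 2.93e-10), and it was the only member that fell. Psmb9 rose 2.96-fold, Psmb8 2.02-fold, Tap2 1.87-fold and Tap1 1.75-fold, and Nlrc5 was called higher too (adjusted p = 0.00889), with 13.2% of all genes called higher and 11.2% lower. Replicate 3 of the 3-month cauda, rich in macrophage markers, bears on these calls. Its 4 leukocyte markers other than Cd52, which epididymal epithelium also expresses, summed to 695 CPM against 80.4 to 85.0 CPM in the other 3 libraries. Without this library Psmb9 (log2 difference 1.47, adjusted p = 1.88e-06), Tap2 (0.70, adjusted p = 0.00200) and Tap1 (0.56, adjusted p = 0.0125) were still called, and Psmb8 (0.60, adjusted p = 0.0793) and Nlrc5 (0.52, adjusted p = 0.129) were not, which leaves 3 members higher in place of 5.

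From the cauda to the vas deferens 6 genes fell, with 21.3% of all genes called lower and 15.1% higher. B2m was 3.36-fold lower in the vas deferens (log2 difference -1.75, SE 0.22, adjusted p = 1.86e-07), Psmb8 2.28-fold, H2-K1 1.94-fold, H2-D1 1.92-fold, Psmb9 1.73-fold and Tapbp 1.43-fold. Without the macrophage-rich replicate 3 of the cauda the same 6 genes were called lower, with log2 differences of -0.58 in place of -0.94 for H2-D1 and -0.78 in place of -1.19 for Psmb8. With libraries scaled by total counts alone, Tapbp (-0.24, adjusted p = 0.443) and Psmb9 (-0.52, adjusted p = 0.0918) were not called. Tap2 was the 1 gene called higher (1.42-fold, adjusted p = 0.0224), a call that was lost without any 1 of 4 libraries of these regions. Tap1 and Nlrc5 were not called. Over the 6 steps 23 of the 54 gene and step pairs were called higher and 16 lower.

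**Figure D2:**
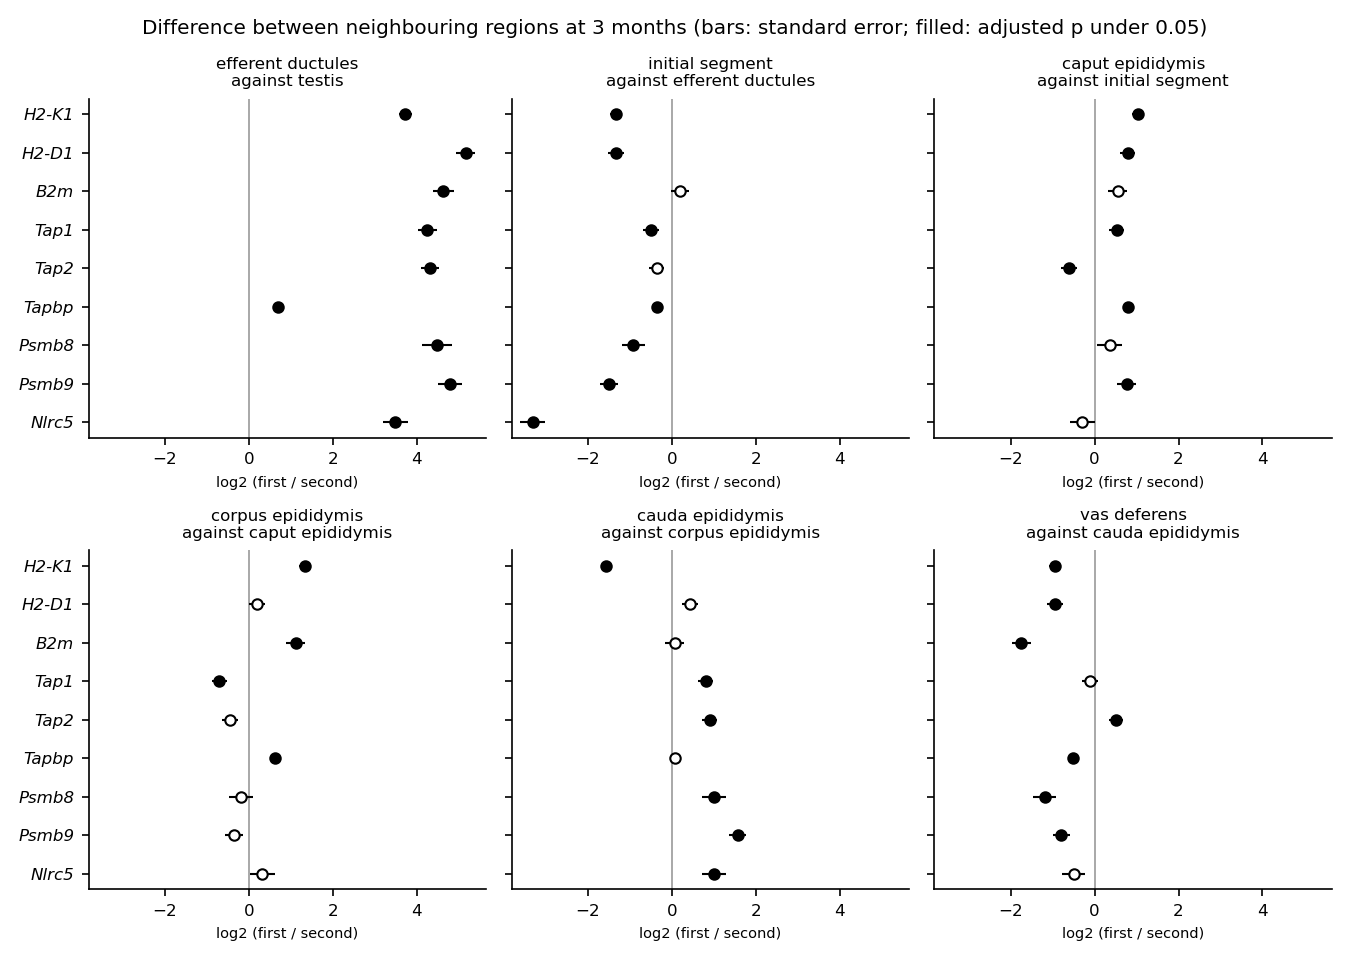
Fitted log2 difference between each pair of neighbouring regions at 3 months (horizontal axis, one panel per step) for the 9 genes (vertical axis), with standard errors as bars and filled points for an adjusted p under 0.05. All points lie to the right in the first step, Nlrc5 lies at -3.32 in the second, and H2-K1 lies at 1.34 in the fourth and at -1.56 in the fifth.

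Age was tested within each region in a fit of its 8 libraries. Of the 63 gene and region pairs, 14 were called higher at 21 months and none lower, 57 fitted values were above 0 and 6 below. Of all genes tested, 0.07% (cauda) to 11.4% (vas deferens) were called higher, and 0.0583% (cauda) to 8.47% (vas deferens) lower. The calls fell in 3 regions only, the vas deferens (5 genes), initial segment (5) and efferent ductules (4). Psmb8 was called in all 3 of these regions, though in the initial segment only just, Tap1 in none, and the other genes in 1 or 2. The genes share libraries and a pathway, so the 63 pairs are not independent.

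In the vas deferens 5 of the 9 genes rose, in a region where 11.4% of the 25216 genes tested were called higher and 8.47% lower. B2m had 445, 535, 398 and 354 CPM at 3 months and 1304, 1228, 1756 and 2393 CPM at 21 months. The ages did not overlap, and the fitted rise was 3.70-fold (log2 1.89, SE 0.21, adjusted p = 0.000491). Nlrc5 had 16.2, 12.6, 20.3 and 13.5 CPM at 3 months and 37.5, 32.0, 25.7 and 74.6 CPM at 21 months, a 2.62-fold rise (log2 1.39, SE 0.31, adjusted p = 0.0111). Psmb8 had 4.18, 5.50, 5.39 and 5.30 CPM against 10.8, 11.3, 10.8 and 23.9 CPM, a 2.68-fold rise (log2 1.42, SE 0.27, adjusted p = 0.00520). Both Psmb8 and Nlrc5 were without overlap, and in both the fourth library of 21 months lay far above the other 3.

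Psmb9 rose 1.72-fold in the vas deferens (adjusted p = 0.0300) and H2-K1 1.61-fold (adjusted p = 0.0322), also without overlap. These 2 calls were lost when any 1 of the 4 libraries of 3 months was left out, which left 3 genes. Tap1 had 23.1 to 26.5 CPM at 3 months and 26.9 to 64.7 CPM at 21 months, with no overlap but an adjusted p of 0.102. The log2 values of H2-D1 (0.29), Tap2 (0.25) and Tapbp (0.13) did not pass the test. Replicate 4 of 21 months was the highest of its group for all 9 genes. Without it the same 5 genes were called, with log2 values of 1.65 for B2m, 1.04 for Psmb8, 0.95 for Nlrc5, 0.49 for Psmb9 and 0.43 for H2-K1.

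Markers of lymphocytes moved with these genes in the vas deferens. The 7 T cell and CD8 markers summed to 1.96 to 3.86 CPM at 3 months and 12.4 to 33.6 CPM at 21 months, and all 7 were called higher. The 5 B and plasma cell markers summed to 3.69 to 6.38 CPM and 57.3 to 194 CPM, and all 5 were called higher. Replicate 4 of 21 months was the highest library for both lists, as it was for the 9 genes. The 6 macrophage markers summed to 153 to 208 CPM at 3 months and 150 to 235 CPM at 21 months, with 2 of 6 called higher. The 5 leukocyte markers summed to 637 to 669 CPM and then 895 to 1550 CPM, with 4 called higher, and without Cd52 to 63.5 to 78.1 CPM and then 109 to 331 CPM, replicate 4 again being the highest. Of 4 endothelial markers 2 were called lower. Among 4 epithelial markers 3 were called higher, and their sum was 459 to 513 CPM at 3 months and 498 to 752 CPM at 21 months. The part of these cells in the age differences was not tested. Short transcripts moved too: 203 protein-coding genes with at most 1000 bases of exon and a mean of at least 10 CPM, among which B2m with 860 bases falls, had a median log2 difference of 0.81 in the vas deferens against 0.01 for the 10905 longer genes, a comparison made after the values were seen. In the efferent ductules, where B2m was not called (log2 0.17), the medians were 0.57 and 0.0018. The other 8 genes exceed this limit in exon bases merged over all annotated transcripts, for example Psmb8 with 3381 and Psmb9 with 3660. Their single transcripts can be shorter, and the part of transcript length in the rise of any member was not tested.

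**Figure D3:**
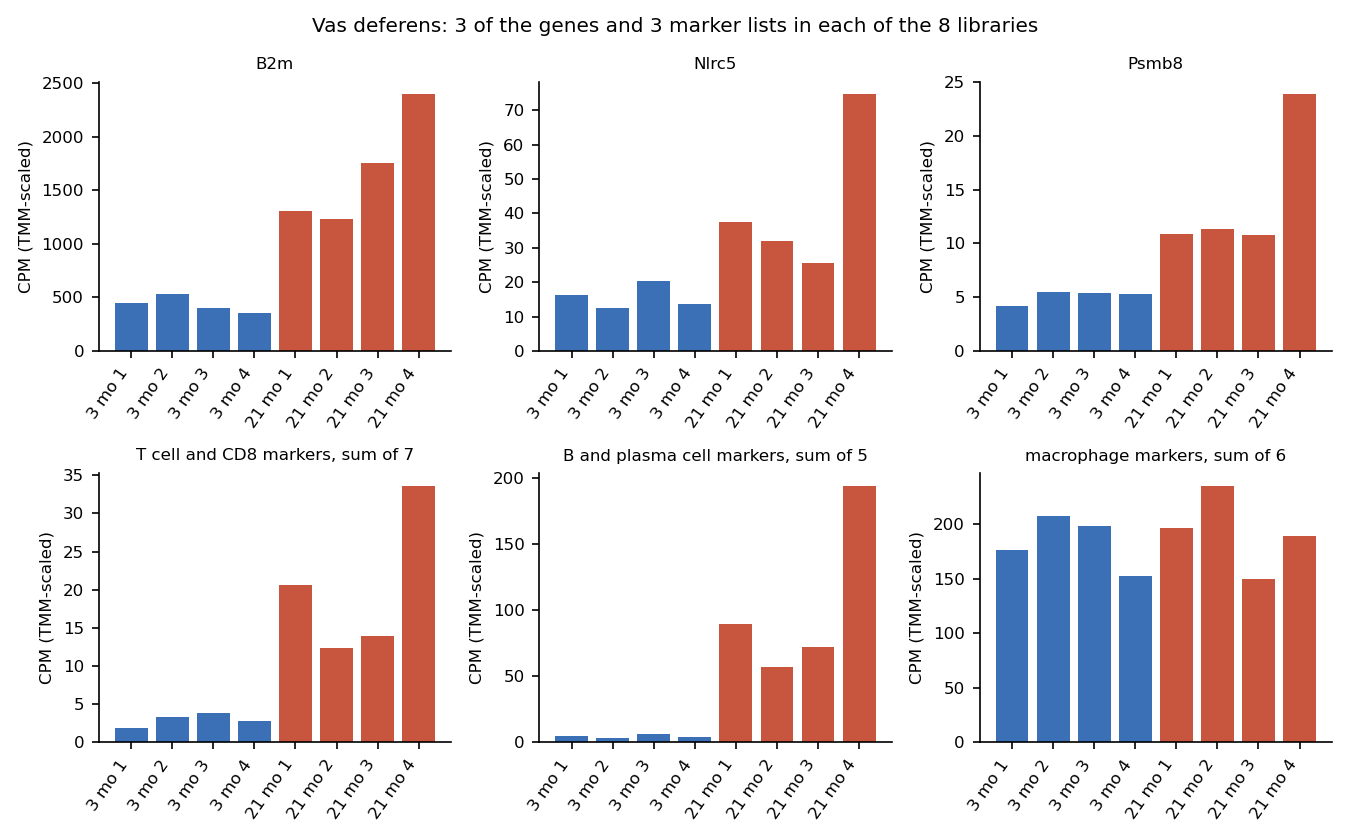
B2m, Nlrc5 and Psmb8 (upper row) and the summed T cell, B and plasma cell, and macrophage markers (lower row) in the 8 vas deferens libraries, as bars of CPM from 0, blue for 3 months and red for 21 months. The 4 older libraries exceed all 4 younger ones in 5 of the 6 panels, replicate 4 of 21 months is the highest in those 5, and the macrophage panel shows overlap.

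In the initial segment 5 genes rose, where 3.35% of all genes were called higher and 3.01% lower. B2m had 441, 515, 371 and 533 CPM at 3 months and 782, 711, 594 and 540 CPM at 21 months, with no overlap (log2 0.64, SE 0.12, adjusted p = 0.00681). The levels, which share 1 scaling of all 56 libraries, have means in a ratio of 1.41, against 1.56-fold in the fit of this region. H2-D1 had 157 to 177 CPM and 185 to 227 CPM, also without overlap (log2 0.41, SE 0.07, adjusted p = 0.00525). H2-K1 (log2 0.36, adjusted p = 0.0109), Nlrc5 (0.57, adjusted p = 0.0317) and Psmb8 (0.58, adjusted p = 0.0495) were called as well, of which H2-K1 and Nlrc5 overlapped between the ages. Psmb9 had 2.79 to 3.03 CPM at 3 months and 3.34 to 4.09 CPM at 21 months, with no overlap, and was not called (log2 0.49, adjusted p = 0.129). Tapbp had a log2 value of 0.01. The count of 5 depended on the fit: with all 56 libraries in 1 fit none of the 9 was called, and all log2 values were lower, for example 0.50 for B2m and -0.13 for Tapbp. Leaving out 1 library at a time left 3 or 4 genes, with Nlrc5 and Psmb8 the calls that were lost. Psmb8 was not called with the replicate number as a block (adjusted p = 0.0946) or with the filterByExpr filter (adjusted p = 0.0516). The 7 T cell and CD8 markers summed to 3.43 to 3.81 CPM at 3 months and 5.75 to 7.26 CPM at 21 months, with 3 of 7 called higher, and 4 of 5 leukocyte markers were called higher. The 6 macrophage markers summed to 174 to 182 CPM and then 186 to 234 CPM, with 2 called higher, and 2 of 4 adipocyte markers were called lower. The epithelial markers summed to 1040 to 1084 CPM and then 826 to 968 CPM, and the endothelial ones to 164 to 231 CPM and then 134 to 158 CPM, with none called in either list. All 6 germ cell markers were called lower, with sums of 30.6 to 107 CPM at 3 months and 8.09 to 23.6 CPM at 21 months. The part of these cells was not tested.

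In the efferent ductules 4 genes rose, where 4% of all genes were called higher and 2.98% lower. Psmb8 had 10.3, 11.1, 10.5 and 9.83 CPM at 3 months and 25.9, 14.2, 15.5 and 22.4 CPM at 21 months (log2 0.98, SE 0.21, adjusted p = 0.0249). Psmb9 had 8.97, 9.23, 8.65 and 7.14 CPM against 14.7, 13.3, 11.2 and 12.2 CPM (log2 0.67, SE 0.15, adjusted p = 0.0270). Tap2 (log2 0.56, adjusted p = 0.0271) and Tapbp (log2 0.46, adjusted p = 0.0293) rose less, and all 4 genes were without overlap. H2-K1 and H2-D1 had no overlap either, with log2 values of 0.41 and 0.39 and adjusted p-values of 0.0643 and 0.0704. In this region 6509 of 25944 genes had an unadjusted p under 0.05, and the share of all genes without overlap was not counted.

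Nlrc5 went the other way in the efferent ductules. Its 21-month libraries had 56.6, 102, 92.1 and 58.6 CPM, all below the 105 to 130 CPM of the 3-month libraries, with a log2 value of -0.55 (SE 0.17) that did not pass the test (adjusted p = 0.0733). The 4 calls of this region were fragile. No gene was called without replicate 1, 3 or 4 of 3 months, only Psmb8 was called with all 56 libraries in 1 fit or with the replicate number as a block (adjusted p = 0.0459 with the block), and 1 was called higher (Psmb8) and 1 lower (Nlrc5) when libraries were scaled by their total counts alone, a scaling that moved the median of all genes to -0.38 from -0.04 and the calls of all genes to 405 higher and 4883 lower from 1039 and 774. The Gm42418 shares given above differed between the ages in this region, and their part was not tested. The 7 T cell and CD8 markers summed to 1.52 to 2.57 CPM at 3 months and 5.59 to 7.57 CPM at 21 months with 3 of 7 called higher, 4 of 6 macrophage markers were called higher (233 to 248 CPM in sum at 3 months, 301 to 406 CPM at 21 months), and all 4 red blood cell markers were called higher (16.4 to 26.2 CPM in sum, then 36.5 to 110 CPM). Of the 5 B and plasma cell markers 2 were called higher. The summed adipocyte markers were at 515 to 767 CPM at 3 months and at 147 to 441 CPM at 21 months, with 1 of 4 called lower, and the endothelial ones had 283 to 321 CPM and then 196 to 277 CPM, with none of 4 called. The part of these cells was not tested. DESeq2 called 6 members higher and Nlrc5 lower in this region, where it called 10.6% of all genes with an adjusted p higher and 7.37% lower.

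No member was called in the testis, caput, corpus or cauda by the edgeR test. In the testis, where 0.353% of all genes were called higher and 0.21% lower, 2 members had an unadjusted p under 0.05. B2m had 22.5, 19.7, 12.3 and 15.3 CPM at 3 months and 29.0, 31.2, 23.7 and 20.1 CPM at 21 months, which overlap, with a log2 value of 0.57 (SE 0.14, adjusted p = 0.0611). H2-K1 had a log2 value of 0.01 there. In the corpus, where 1.5% of genes were called higher and 1.47% lower, 2 members had an unadjusted p under 0.05, Nlrc5 (log2 0.48, adjusted p = 0.125) and Psmb9 (0.52, adjusted p = 0.271). In the cauda 0.07% and 0.0583% of genes were called, and 1 member had an unadjusted p under 0.05. This was B2m, with 1668, 1733, 1205 and 1851 CPM at 3 months and 2112, 3692, 2061 and 2406 CPM at 21 months, which did not overlap (log2 0.68, SE 0.20, adjusted p = 0.258). Replicate 2 of the 21-month cauda had the highest B2m of all 56 libraries and the lowest level of its group for the other 8 genes. DESeq2 called no member in the corpus and cauda, and none in the testis.

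In the caput 3.09% of genes were called higher and 5.05% lower, and 5 members had an unadjusted p under 0.05. B2m had 323, 856, 690 and 645 CPM at 3 months and 392, 423, 330 and 291 CPM at 21 months, with a log2 value of -0.90 (SE 0.26) and an adjusted p of 0.0519. Without replicate 2 of 3 months, the library rich in Gm42418, this became -0.62 (adjusted p = 0.133), and without replicate 1 of 3 months, the low library for B2m, B2m was called lower, in a fit that called 11.8% of all genes lower. The fit without replicate 2 called Tap2 (log2 0.57, adjusted p = 0.0258) and Psmb8 (0.85, adjusted p = 0.0249) higher, with 574 of 25096 genes called higher. H2-D1 had 230 to 318 CPM and 344 to 366 CPM, without overlap (log2 0.33, SE 0.10, adjusted p = 0.0512). DESeq2 called H2-D1 and Tap2 higher and B2m lower in this region, and of all genes 4.62% higher and 7.18% lower.

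**Figure D4:**
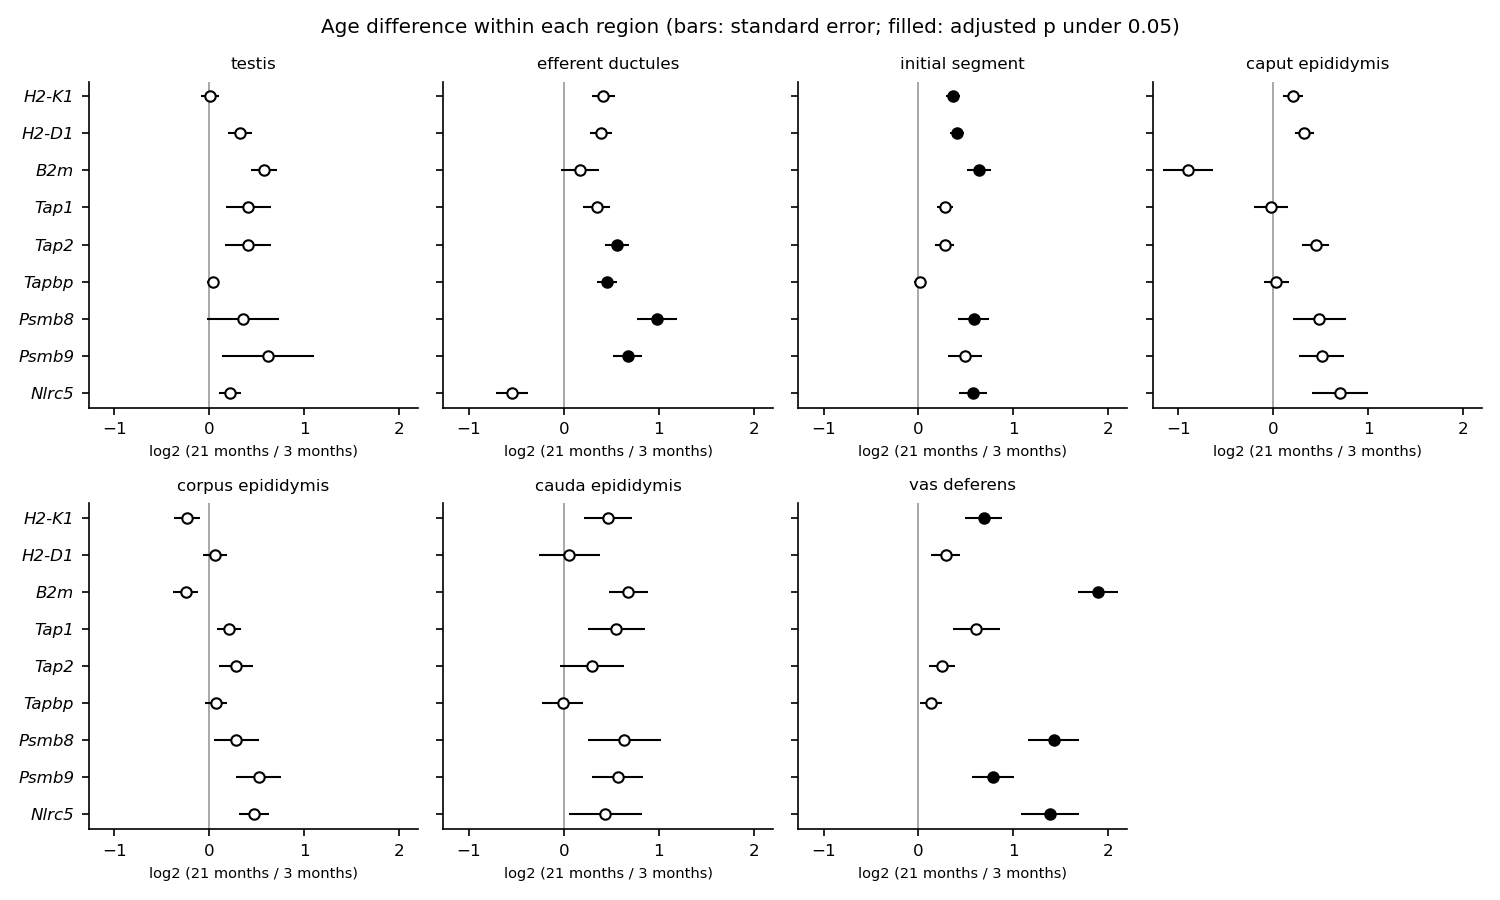
Fitted log2 difference between 21 and 3 months (horizontal axis) for the 9 genes (vertical axis) in each of the 7 regions (panels), with standard errors as bars and filled points for an adjusted p under 0.05. The 14 filled points all lie to the right of 0, in the efferent ductules, initial segment and vas deferens, and B2m ranges from -0.90 in the caput to 1.89 in the vas deferens.

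Whether the age effect differed between the 7 regions was tested in all 56 libraries. B2m (adjusted p = 4.86e-07), Nlrc5 (adjusted p = 0.00562) and H2-K1 (adjusted p = 0.0491) were called, 3 of the 9 genes, where 20.2% of the 36977 genes tested were called. Thus the age effect of B2m differed between regions, from -0.90 in the caput over -0.25 in the corpus to 1.89 in the vas deferens on the log2 scale. That of Nlrc5 ran from -0.55 in the efferent ductules to 1.39 in the vas deferens, and that of H2-K1 from -0.23 in the corpus to 0.69 in the vas deferens. The call of B2m held in each fit with a replicate number left out, with adjusted p-values of 3.19e-06 to 0.00130. The call of Nlrc5 was lost without replicate 1 (adjusted p = 0.192) or replicate 4 (0.164). The call of H2-K1 was lost in all 4 of these fits (0.0819 to 0.493) and with 6 other settings, and was kept by DESeq2 (0.0300). The remaining 6 genes, Psmb8 among them (adjusted p = 0.207), did not pass, which does not show that their age effects were equal.

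The other genes of the pathway were followed with a fixed list of 46 genes. In the vas deferens 16 of the 43 tested were called higher and 3 lower, against 11.4% and 8.47% of all genes. In the caput 8 of 41 were called higher (3.09% of all genes), in the initial segment 5 of 42 higher (3.35%) and 1 lower (3.01%), in the efferent ductules 4 of 43 higher (4%), in the corpus 3 of 43 higher (1.5%), and in the testis and cauda none. The class I heavy chain genes outside the classical pair held most of these calls. H2-Q6 and H2-Q7, Qa-2 type heavy chains, were called higher in 4 of 7 regions each. H2-Q7 went from 7.45 ± 1.32 to 27.0 ± 10.7 CPM in the vas deferens (3.50-fold, adjusted p = 0.00186), from 3.25 ± 0.623 to 6.95 ± 0.513 CPM in the caput (2.05-fold, adjusted p = 0.00515), from 4.17 ± 0.742 to 8.11 ± 1.79 CPM in the corpus (1.93-fold, adjusted p = 0.0194) and from 4.83 ± 0.814 to 8.44 ± 1.14 CPM in the initial segment (1.93-fold, adjusted p = 0.00297). H2-Q6 rose 3.29-fold in the vas deferens, 2.75-fold in the caput, 1.89-fold in the initial segment and 1.79-fold in the corpus. In the caput, where 6 of 14 tested heavy chain genes of the list were called higher, the 7 T cell and CD8 markers summed to 1.51 to 3.21 CPM at 3 months and 6.68 to 11.2 CPM at 21 months, with 3 called higher, and 3 of 5 leukocyte and 2 of 6 macrophage markers were called higher. The 6 germ cell markers summed there to 93.3 to 132 CPM and then 79.7 to 84.3 CPM, with 2 called lower, and 1 endothelial and 1 adipocyte marker were called lower. In the corpus the 5 B and plasma cell markers summed to 4.74 to 6.13 CPM and then 8.89 to 28.8 CPM, with 2 called higher, and the T cell and CD8 markers to 3.17 to 4.17 CPM and then 5.71 to 9.50 CPM, with none called, while 3 of 4 red blood cell markers were called higher and 2 of 4 adipocyte and 1 of 5 leukocyte markers lower. The part of these cells was not tested. The sequences of H2-Q6 and H2-Q7 are close to each other and to the classical genes, so reads may be split among them. In the efferent ductules, where the level of H2-Q7 was highest, it was not called (47.6 against 53.6 CPM, adjusted p = 0.257).

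H2-T24 rose 2.74-fold in the vas deferens and 1.71-fold in the initial segment, and H2-M3, which presents formylated peptides, rose 2.17-fold in the caput. Hfe, a heavy chain relative that regulates iron uptake, fell in the vas deferens (log2 -0.80, adjusted p = 0.00823) and rose in the caput (log2 0.74, adjusted p = 0.0259). Also lower in the vas deferens were the trimming enzyme Lnpep (log2 -0.33) and the constitutive subunit Psmb6 (log2 -0.35). All 3 further inducible proteasome genes, Psmb10, Psme1 and Psme2, were called higher in the vas deferens, with a median log2 value of 0.53, and the 3 constitutive subunits had a median of -0.04 there. In the efferent ductules Socs1, an inhibitor of cytokine signalling, rose 2.58-fold, Psmb10 rose 1.80-fold and H2-T23 1.72-fold. Ifngr2, a chain of the interferon gamma receptor, fell in the initial segment (log2 -0.27, adjusted p = 0.0436). Of the 15 tested genes that act on class I promoters or in interferon gamma signalling, 3 were called higher in the vas deferens (11.4% of all genes), 1 higher and 1 lower in the initial segment (3.35% and 3.01%), 1 higher in the efferent ductules (4%) and none in the other 4 regions, counts that lie near the shares of all genes. Those of the vas deferens were Nfyc, a subunit of NF-Y (log2 0.52, adjusted p = 0.00513), Rfxank, a subunit of the RFX complex (log2 0.39, adjusted p = 0.00947), and the kinase Jak2 (log2 0.52, adjusted p = 0.0159), named after their values were seen. Irf1, an interferon regulatory factor, was the gene called higher in the initial segment (log2 0.39, adjusted p = 0.0334).

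Ratios of 2 genes within a library do not depend on its scaling. Per kilobase of exon, the ratio of H2-K1 to H2-D1 was 3.02 ± 0.289 in the 3-month corpus and 3.07 ± 0.371 in the testis, between 1.12 and 1.35 in the efferent ductules, initial segment and caput, and 0.804 ± 0.147 in the cauda, with 0.752 ± 0.0147 in the vas deferens. At 21 months it was higher in the vas deferens (0.975 ± 0.0891) and cauda (1.01 ± 0.0338) and lower in the caput (1.24 ± 0.0596), in each without overlap between the ages. The ratio of B2m to H2-K1 in the vas deferens went from 8.01 ± 1.78 to 19.0 ± 5.72, without overlap, and in the other 6 regions the ages overlapped.

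The ratio of Psmb8 to its constitutive counterpart Psmb5 at 3 months averaged 0.00753 ± 0.00246 in the testis, 0.220 ± 0.00488 in the efferent ductules and 0.0513 ± 0.00832 for the initial segment. With age it rose without overlap in the initial segment, to 0.0865 ± 0.0165, and in the vas deferens, from a range of 0.0895 to 0.122 to a range of 0.184 to 0.477. In the efferent ductules, where Psmb5 itself was called higher (1.58-fold), the Psmb8 to Psmb5 ratio overlapped between the ages, at 0.220 and 0.276 ± 0.0731. The ratio of Psmb9 to Psmb6 was without overlap in 3 regions, from 0.0167 ± 0.000999 to 0.0248 ± 0.00590 in the initial segment, from 0.0763 ± 0.00707 to 0.143 ± 0.0127 in the cauda and from 0.0378 ± 0.00292 to 0.0827 ± 0.0281 in the vas deferens. In the cauda Psmb9 itself overlapped between the ages and was not called (adjusted p = 0.496). Replicate 2 of the 21-month cauda had 9.11 CPM of Psmb9, below the 10.7 to 13.7 CPM of 3 months, so its higher ratio goes with a lower Psmb6. Psmb8 and Psmb9 were below their counterparts on this scale in every library. Psmb10, the third inducible catalytic subunit, came closer to its counterpart Psmb7 in the efferent ductules, where the ratio went from 0.599 ± 0.0580 to 0.961 ± 0.133 without overlap. Exon lengths are those of all annotated transcripts merged, which sets the height of these ratios but not their change.

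**Figure D5:**
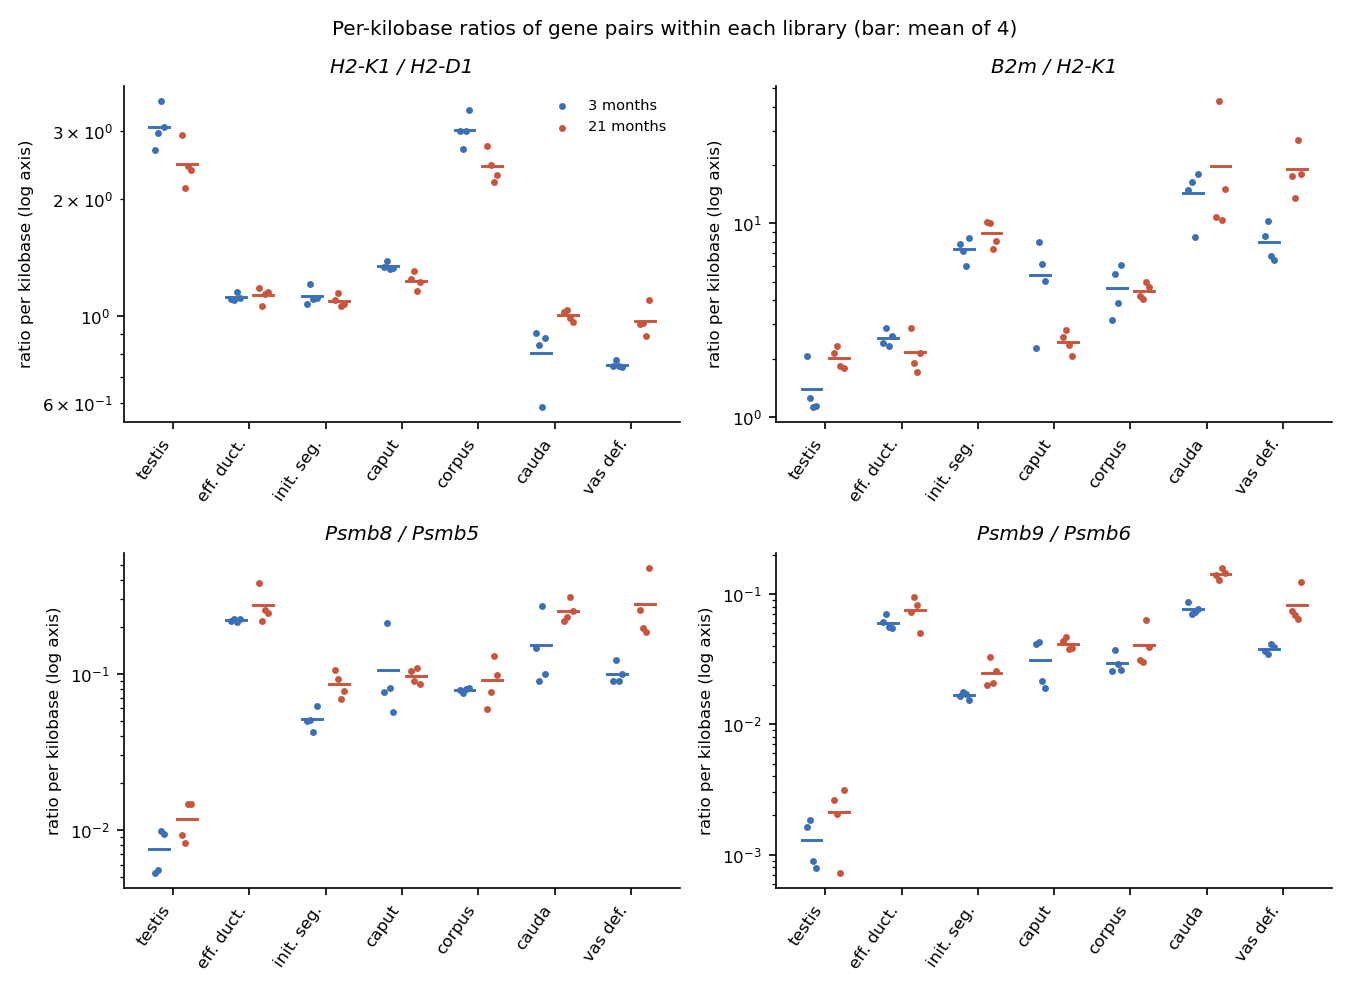
Per-kilobase ratio of H2-K1 to H2-D1, B2m to H2-K1, Psmb8 to Psmb5 and Psmb9 to Psmb6 (panels, logarithmic vertical axes) in each library by region, blue for 3 months and red for 21 months, with bars for the mean of 4. The ratio of H2-K1 to H2-D1 is 2.13 or more in every testis and corpus library and 1.39 or less in every other, and the ratio of Psmb9 to Psmb6 lies above the younger range in every older library of the initial segment, cauda and vas deferens.

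The 9 genes shared much of their pattern over the 14 groups of region and age, in large part through the low testis. Nlrc5 was an exception, as it matched the mean profile of the 9 genes more closely over the 12 duct groups. The correlation of log2(CPM + 1) group means between pairs of members had a median of 0.790 over 36 pairs (0.171 to 0.969), and 0.511 over the 12 duct groups (-0.440 to 0.910). The groups share mice and libraries share their scaling, and the values are a description only. Against the mean profile of the 9 genes, of which each member is itself a part, Psmb8 correlated most over the 14 groups (r = 0.977) and Nlrc5 least (0.564). The order differed over the 12 duct groups, where Psmb9 (0.951) and Psmb8 (0.929) were highest, Tap2 (0.414) and H2-K1 (0.420) lowest, and Nlrc5 had 0.722. Of the other genes among the 19681 compared, the 5 closest to the mean profile were Msra (0.975), a methionine sulfoxide reductase, Trim21 (0.974), a cytosolic antibody receptor, Fth1 (0.973), the ferritin heavy chain, Tnip2 (0.971), which binds the NF-kappaB inhibitor A20, and Nfkbia (0.970), the inhibitor of NF-kappaB. Closeness to this profile is not particular to the pathway: B2m ranked 485, H2-K1 959 and Nlrc5 5723 among the genes compared, behind many genes that are no members.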

How the data were processed

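The authors aligned paired-end reads of stranded total RNA libraries with HISAT2 to GRCm38 and deposited whole-number read counts per Ensembl gene, without normalization. The submitters' processing notes also name cutadapt and HTSeq (tool versions, annotation release, counting mode and strand setting are not given in the sources used here). RNA extraction is given as TRIzol in the labels and as a column kit in the methods. Depth is stated above, and no 2 libraries were identical. The labels do not tie a replicate number to a mouse, so p-values measure the spread between these samples. Same-numbered libraries deviated together, with every correlation over 0.1, in 1 of 21 region pairs at 3 months (corpus and cauda), 0 of 21 at 21 months and 0 of 7 pairs of ages, and the main fits had no replicate block.

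Symbols, positions and merged exon lengths came from GENCODE M21, which named 53274 of the 53379 genes. Genes whose counts summed to at least 10 in the libraries of a fit were tested with edgeR 4.0.16 in R 4.3.3 (TMM scaling, quasi-likelihood F-test, Benjamini-Hochberg adjustment over all genes tested). Every adjusted p in the text is from this test unless DESeq2 (1.42.0) is named. CPM came from 1 scaling of all 56 libraries, and fitted folds from the scaling of each fit, so that ratios of means can differ slightly from fitted folds. The fits were also run on simulated counts in which most genes did not change. That setting is unlike the step from the testis to the efferent ductules and is no check of it.

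The members and lists were chosen with earlier results of these data known. One further promoter motif and 1 gene of the pathway list are not reported here. All 9 members are named. Of the pathway list, genes called in at least 4 regions and up to 3 per region and direction with the largest fold and at least 1 CPM are named, and of the genes most like the members the 5 closest. Alternatives were DESeq2, its size factors, total counts alone, 2 filters, 1 fit of all libraries, a replicate block, the study's fold thresholds, removal of Gm42418 and leaving out libraries.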

Additional observations from a re-analysis of the deposited data

Results flagged for a closer look

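Of 126 sets of 4 libraries (9 genes in 14 groups), 13 had a library set apart from the other 3 by Dixon's criterion (gap to the nearest library over the range, at the 95% critical value). Chance gives about 1 in 20 such sets. Replicate 4 of the 21-month vas deferens stood high for Tap1 (64.7 CPM), Psmb8 (23.9 CPM) and Psmb9 (17.5 CPM), and replicate 1 of the 3-month vas deferens stood low for Psmb8 (4.18 CPM). In the cauda, replicate 3 of 3 months stood high for H2-D1 (725 CPM) and low for Tapbp (322 CPM), and replicate 2 of 21 months stood low for Tapbp (197 CPM). Tap2 was set apart in 4 groups, high in replicate 4 of the 3-month testis (2.18 CPM) and replicate 3 of the 21-month initial segment (25.5 CPM), and low in replicate 4 of the corpus at 3 months (6.80 CPM) and at 21 months (8.88 CPM). In the efferent ductules H2-K1 was high in replicate 4 of 21 months (834 CPM) and B2m in replicate 2 of 3 months (487 CPM).

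The age effect differed between the 7 regions for B2m (adjusted p = 4.86e-07), Nlrc5 (adjusted p = 0.00562) and H2-K1 (adjusted p = 0.0491, edgeR quasi-likelihood F-test with Benjamini-Hochberg adjustment). The call of H2-K1 was lost without any 1 replicate number (0.0819 to 0.493) and with 6 other settings (0.0531 to 0.120), and that of Nlrc5 without replicate 1 (0.192) or 4 (0.164).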

How the results depend on the processing

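With 4 libraries per group, counts of called members near the threshold depended on the fit, and the causes were not tested. With DESeq2 size factors every count of called members stayed within 1.5 times the reported one. The printed levels depend on the scaling: of 126 group means, 37 moved by more than the spread between replicates with total counts alone and 45 without Gm42418, for example H2-K1 in the 3-month efferent ductules from 554 to 692 CPM with total counts alone.

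Scaling by total counts alone gave 1 gene called higher with age in the testis (B2m, reported 0), 1 higher and 1 lower in the efferent ductules (reported 4 and 0), and 2 higher in the caput against the initial segment (reported 5). It turned the log2 age value of H2-K1 in the testis to -0.020, of B2m in the efferent ductules to -0.19, of Tap1 in the caput to 0.27, and in the corpus of H2-D1 to -0.10 and of Tapbp to -0.081. It also turned B2m in the initial segment against the efferent ductules to -0.19 and Tap1 in the vas deferens against the cauda to 0.16.

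Without a count filter 1 gene was called higher with age in the testis, 1 lower in the caput and 1 higher in the corpus, where none was reported, and 2 were lower in the corpus against the caput (reported 1). With the filterByExpr filter 1 was higher in the caput. Without Gm42418 the count higher in the vas deferens against the cauda was 0 (reported 1).

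With the replicate number as a block (replicate block), 1 gene was called higher in the testis, 1 in the efferent ductules (reported 4), 1 higher and 1 lower in the caput, and 1 higher in the corpus, and Tap1 in the caput turned to 0.0073. The block left the counts of the cauda against the corpus at 5 higher and 1 lower. The labels tie no number to a mouse. The Psmb8 and Psmb9 counts of 3 to 12 in the 3-month testis limit what could be seen there.

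With all 56 libraries in 1 fit the count higher with age was 0 in the initial segment and 1 in the efferent ductules, 1 was lower in the caput, and 0 were higher in the vas deferens against the cauda, while Tapbp in the initial segment turned to -0.13 and Tap1 in the caput to 0.045. DESeq2's Wald test called 1 lower in the efferent ductules, and 2 higher and 1 lower in the caput.

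With the thresholds the study used (an unadjusted p under 0.05 and a fold of at least 1.5 for age and 4 for regions), 2 genes were higher with age in the efferent ductules, 1 in the cauda, 1 in the caput, with 1 lower there, and 1 in the initial segment, while 1 was lower in the initial segment against the efferent ductules, and 0 in either direction in the 4 steps from the initial segment to the vas deferens.

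Leaving out 1 library at a time gave 0 to 1 gene higher with age in the testis, 0 to 5 higher and 0 to 1 lower in the efferent ductules, 3 to 4 higher for the initial segment, 0 to 2 higher and 0 to 1 lower in the caput, and 3 to 6 higher in the vas deferens. It gave 3 to 6 higher in the cauda against the corpus, 0 to 1 higher in the vas deferens against the cauda, and 1 to 2 genes whose age effect differed between regions. Age values that turned sign were those of H2-K1 in the testis (-0.060 to 0.12), Tapbp in the initial segment (-0.0071 to 0.042), caput (-0.048 to 0.18), corpus (-0.029 to 0.14) and cauda (-0.12 to 0.19), Tap1 in the caput (-0.13 to 0.20), and H2-D1 in the corpus (-0.038 to 0.22) and cauda (-0.074 to 0.43), as did Psmb8 in the corpus against the caput (-0.27 to 0.13) and Tap1 in the vas deferens against the cauda (-0.34 to 0.13). None of these had been called.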
